A study of Mus musculus with 18 samples.

Results

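Enzymes and cofactors that write, copy and remove DNA methylation were followed in mESCs by RNA-seq, 9 genes chosen by name from the deposited expression table, in which they are 9 of 24369 genes. They are the maintenance enzymes *Dnmt1* and *Uhrf1*, the de novo group *Dnmt3a*, *Dnmt3b* and *Dnmt3l*, the dioxygenases *Tet1*, *Tet2* and *Tet3*, and the glycosylase *Tdg*. The files list 32 RefSeq transcripts for them, of which 3 belong to *Dnmt3a* and 9 to *Dnmt3b*. All cells were E14-derived mESCs with Cas9 at *Rosa26* and a GFP reporter in *Rex1*, a marker of the naive state that the files list as *Zfp42*.

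The 18 libraries form 2 experiments. In the time course, wild-type cells were differentiated in NDiff227, a serum-free neural basal medium, without inhibitors or LIF, and were collected on days 0, 1, 2 and 3 with 3 libraries per day. How the day 0 cells were kept is not given in the sources used here. The other 6 libraries were made from sorted GFP+ cells grown in serum and LIF on growth-arrested mouse fibroblast feeders, with 2 libraries each of wild-type, *Nprl2* KO cells and *Tsc2* KO cells cells. Each KO was made by deleting an exon with paired gRNAs and picking clones, and the wild-type cells carry Cas9 and the reporter as well. *Nprl2* encodes a subunit of Gator1 and *Tsc2* a subunit of the Tsc complex, both negative regulators of mTORC1. The labels do not say whether the libraries of a group are separate cultures or clones, so p-values measure the spread between these libraries, which may be technical.

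In mammals methyl groups sit mainly on the cytosine of CG dinucleotides. After DNA replication *Uhrf1* binds hemimethylated DNA and brings *Dnmt1* to it, so that the pattern is copied, while *Dnmt3a* and *Dnmt3b*, helped by the catalytically inactive *Dnmt3l*, set new marks. The *Tet* enzymes oxidise 5-methylcytosine, and *Tdg* excises the oxidised products for replacement by base excision repair. Naive mESCs and the preimplantation epiblast are known for low DNA methylation, and the passage to the postimplantation epiblast for a wave of de novo methylation. DNA methylation itself was not measured in these libraries.

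*Dnmt3a* has more than 1 start site, and the sequences before its starts are shown first because the results on its transcripts turn on which start was used. *Dnmt3a* lies at chr12:3801559-3914443 on the plus strand (GRCm38.p6). The short transcript, NM_153743.4, starts at chr12:3891744, inside the gene. It has 17 coding exons and a coding length of 2067 bases, lacks the first 5 coding exons of the long transcript NM_007872.4, and is known as *Dnmt3a2*. The 250 bases before each start are from RefSeq, with every CG in capitals.
Dnmt3a short start, chr12:3891494-3891743: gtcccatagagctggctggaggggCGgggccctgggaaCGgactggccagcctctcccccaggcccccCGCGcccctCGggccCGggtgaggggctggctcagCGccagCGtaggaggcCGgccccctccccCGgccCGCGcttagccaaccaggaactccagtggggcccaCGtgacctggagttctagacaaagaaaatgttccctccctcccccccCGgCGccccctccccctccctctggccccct
Dnmt3a long start, chr12:3806730-3806979: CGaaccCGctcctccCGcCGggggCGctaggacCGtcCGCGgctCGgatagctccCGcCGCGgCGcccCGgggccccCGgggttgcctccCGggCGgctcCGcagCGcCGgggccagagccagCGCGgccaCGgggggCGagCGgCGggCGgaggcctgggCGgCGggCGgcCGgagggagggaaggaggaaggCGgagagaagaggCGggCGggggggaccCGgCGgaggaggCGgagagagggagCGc

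The window before the short start held 15 CG and that before the long start 38, against a median of 6 (quartiles 2 and 16) in the same window of 32851 promoters. The E-box CACGTG, bound by factors such as Myc and Tfe3, occurred 1 time before the short start and not before the long start, and 6.02% of all promoters hold it. The window before the short start overlaps an annotated exon of another *Dnmt3a* transcript.

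The windows before *Dnmt3b* and *Dnmt3l* are shown because both genes rose on day 1 and then parted. *Dnmt3b* lies at chr2:153649411-153687730 and *Dnmt3l* at chr10:78042287-78063622, both on the plus strand. Again every CG is in capitals.
Dnmt3b, chr2:153649199-153649448: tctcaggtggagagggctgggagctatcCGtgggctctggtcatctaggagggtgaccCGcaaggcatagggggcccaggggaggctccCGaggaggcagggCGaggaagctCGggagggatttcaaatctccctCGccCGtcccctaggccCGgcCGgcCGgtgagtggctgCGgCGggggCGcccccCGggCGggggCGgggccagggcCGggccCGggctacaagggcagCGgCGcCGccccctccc
Dnmt3l, chr10:78049592-78049841: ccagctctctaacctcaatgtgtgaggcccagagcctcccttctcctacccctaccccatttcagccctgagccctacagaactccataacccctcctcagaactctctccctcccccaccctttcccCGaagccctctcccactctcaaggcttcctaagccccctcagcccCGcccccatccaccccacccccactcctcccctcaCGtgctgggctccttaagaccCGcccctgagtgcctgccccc

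The *Dnmt3b* window held 21 CG and 3 matches to the GC box GGGCGG, a motif of Sp1-type factors found in 32.7% of promoters. The *Dnmt3l* window shown, before the start at chr10:78049842, held 4 CG, 2 GC boxes and 1 CACGTG. The windows before the other *Dnmt3l* starts, at chr10:78042287 and chr10:78055335, held 5 and 3 CG and neither motif.

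*Dnmt1* (chr9:20907206-20959888, minus strand) and *Uhrf1* (chr17:56303337-56323486, plus strand) moved together in these libraries, and of 16 windows before the starts of the 9 genes theirs were the 2 with a match to the E2F motif TTTCGCGC on either strand. The match is in capitals.
Dnmt1, chr9:20952624-20952873, minus strand: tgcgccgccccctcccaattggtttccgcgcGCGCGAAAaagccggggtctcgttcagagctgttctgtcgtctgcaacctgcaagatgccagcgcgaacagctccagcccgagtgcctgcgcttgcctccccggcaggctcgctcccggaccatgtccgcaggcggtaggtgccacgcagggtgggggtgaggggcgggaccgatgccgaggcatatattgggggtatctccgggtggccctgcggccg
Uhrf1, chr17:56304063-56304312: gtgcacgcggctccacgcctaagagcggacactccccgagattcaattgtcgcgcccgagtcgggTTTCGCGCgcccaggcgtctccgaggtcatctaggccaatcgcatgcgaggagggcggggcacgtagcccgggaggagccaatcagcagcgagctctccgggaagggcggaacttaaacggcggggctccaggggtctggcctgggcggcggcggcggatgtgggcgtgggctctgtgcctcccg

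This motif was found in 0.256% of promoters. The match ended 212 bases before the start site of the window in *Dnmt1* and 178 bases before it in *Uhrf1*. The *Dnmt1* window lies before a downstream start and overlaps an annotated exon of the *Dnmt1* transcripts that begin further upstream. The *Uhrf1* window likewise lies inside the gene, before a downstream start at chr17:56304313. The windows before the other *Dnmt1* and *Uhrf1* starts held no match to this motif. The other E2F motif searched, TTTGGCGC, and the octamer ATGCAAAT were in none of the 16 windows, and CTTTGA, read by Tcf and Lef factors, was in 1, at *Dnmt1*. They occur in 0.417%, 1.6% and 13.8% of promoters. These are matches of letters, and binding was not measured.

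The authors deposited estimated counts and TPM (a level that is scaled to transcript length and to the library) for each transcript. Total estimated counts were between 12503005 and 15305054 in the time course and between 8610357 and 13780861 in GFP+ cells. A count of 0 would allow up to 3 counts, between 0.196 and 0.348 CPM (counts scaled to the library total), for counting error only. Genes were tested with edgeR on summed counts, and "called" means an adjusted p under 0.05. All 9 genes passed the low-count filter in both experiments. The genes with the fewest reads were *Dnmt3l*, *Tdg* and *Tet2* in the time course, whose lowest libraries held 73, 82 and 103 counts, and *Tet3* and *Tdg* in GFP+ cells, with at least 94 and 102 counts. The targeted genes were lower in their own KO. *Nprl2* was at 5.96 and 6.5 CPM in *Nprl2* KO against 11.7 and 12.6 CPM in wild-type cells, and *Tsc2* at 63.7 and 67.3 CPM in *Tsc2* KO against 152 and 156 CPM. The naive markers *Zfp42*, *Nanog*, *Esrrb*, *Klf4*, *Tfcp2l1* and *Tbx3* together held between 2354 and 2498 TPM on day 0, between 204 and 250 TPM on day 1 and at most 187 TPM later. In GFP+ cells they held 1150 to 1184 TPM in wild-type cells, 812 to 823 TPM in *Nprl2* KO cells and 2107 to 2190 TPM in *Tsc2* KO.

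**Figure D1:**
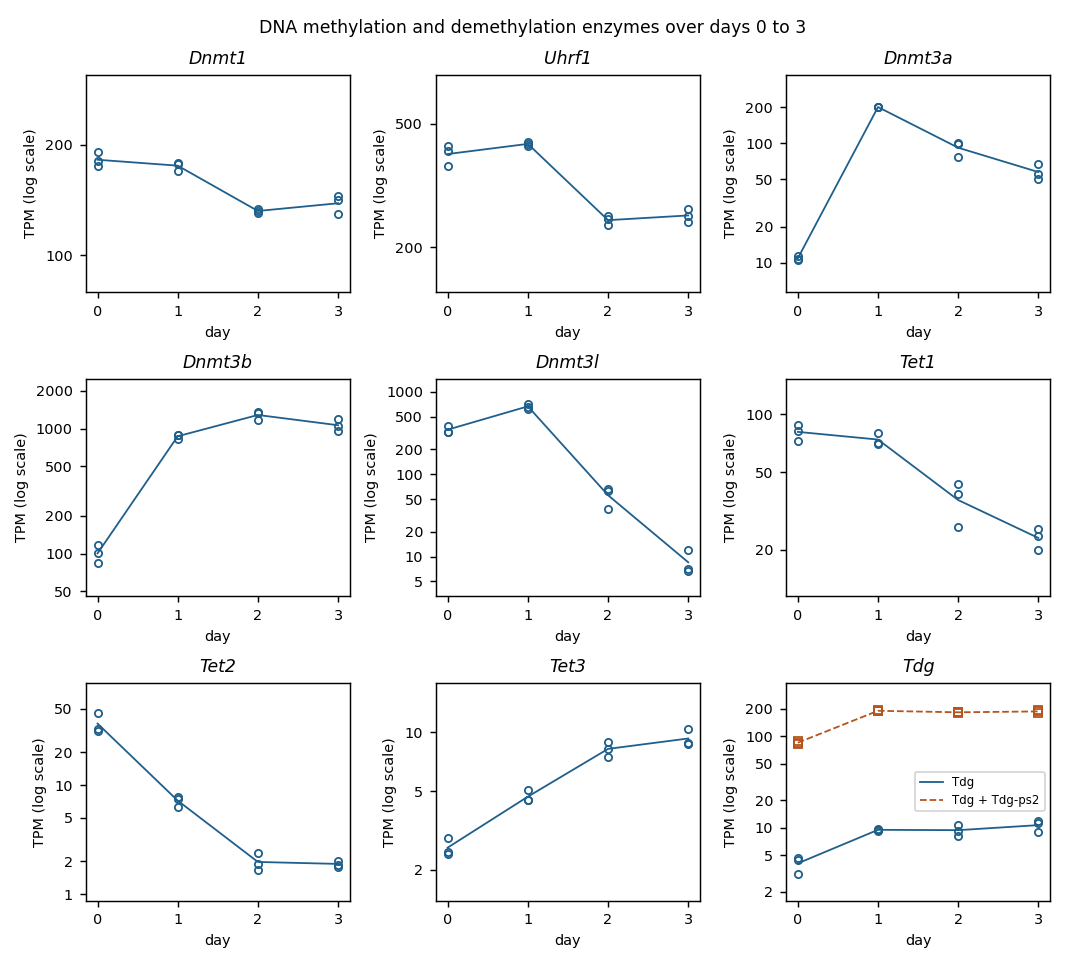
TPM of each of the 9 genes in every time-course library (circles, 3 per day) on log axes against the day, with lines through the means of each day. *Dnmt3a* and *Dnmt3b* jump between days 0 and 1, *Dnmt3l* peaks on day 1 and then collapses, *Tet2* falls while *Tet3* rises, and the squares show *Tdg* summed with its copy *Tdg-ps2*.

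Between days 0 and 1 the de novo group rose sharply, *Tet2* fell and the maintenance pair hardly moved. Between days 1 and 2 *Dnmt3l*, *Tet1*, *Tet2*, *Dnmt1* and *Uhrf1* fell and *Dnmt3a* receded, while *Dnmt3b* and *Tet3* still rose. From day 0 to day 1, 7 of the 9 genes were called, 6 higher and 1 lower, where 60.9% of 14382 genes were called (30.1% higher and 30.8% lower). From day 1 to day 2 it was 8 of 9, 2 higher and 6 lower, against 62.1% (32.5% higher and 29.6% lower), and from day 2 to day 3 it was 3 of 9, all lower, against 31.5% (15.6% lower). Against day 0, all 9 were called on day 3, 4 higher and 5 lower, and 70.9% of all genes were called (35.0% higher and 35.9% lower).

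The median size of the log2 change of the 9 genes was 1.01 from day 0 to day 1, beside 0.40 for all genes tested. It was 0.93 beside 0.39 from day 1 to day 2, and 0.14 beside 0.21 from day 2 to day 3. The values of the groups did not overlap for 7, 8 and 3 of the 9 genes in these steps, where 67.8%, 68.3% and 43.3% of all genes did not overlap. These comparisons share libraries, since each day enters 2 steps. In bulk RNA, fewer cells with a transcript and less of it per cell cannot be told apart.

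*Dnmt1*, the enzyme that copies methylation to the new strand, was at 180.4, 174.9 and 190.4 TPM on day 0 and at 178.3, 169.9 and 177.6 TPM on day 1. It was at 130.5, 133.5 and 131.6 TPM on day 2 and at 129.2, 141.6 and 144.5 TPM on day 3. The first 2 days overlapped, and every library of days 2 and 3 was below every library of days 0 and 1. The log2 change was 0.02 (SE 0.05, adjusted p = 0.794) from day 0 to 1, −0.52 (SE 0.05, adjusted p = 1.48e-07) from day 1 to 2 and 0.02 (adjusted p = 0.792) from day 2 to 3.

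*Uhrf1*, which recognises hemimethylated CG and recruits *Dnmt1*, took the same course at a higher level. It was at 409.1, 364.8 and 425.3 TPM on day 0, 430.4, 425.3 and 437.6 TPM on day 1, 246.0, 251.2 and 236.1 TPM on day 2 and 240.9, 252.4 and 266.1 TPM on day 3. The drop fell again between days 1 and 2, at −0.93 (SE 0.06, adjusted p = 2.12e-10) on the log2 scale. The rise from day 0 to 1, at 0.18 (adjusted p = 0.0131), was lost with limma (adjusted p = 0.103) and without day 0 replicate 2 (adjusted p = 0.0994). The ratio of *Uhrf1* to *Dnmt1* TPM was 2.20 ± 0.0969 on day 0, 2.46 ± 0.0446 on day 1, 1.85 ± 0.0514 on day 2 and 1.83 ± 0.0418 on day 3 (mean ± SD, n = 3). Across the 12 libraries the log2 CPM of both genes had a Pearson correlation of 0.986, a description over libraries that share their days. *Gm5648*, a sequence much like *Uhrf1*, has no row in the tables used here. Of its words of 31 bases, 60.6% also occur in *Uhrf1*, so that reads of *Gm5648* could be counted there.

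*Dnmt3a*, a de novo methyltransferase, was low on day 0, at 10.8, 11.4 and 10.6 TPM, and reached 202, 198.9 and 200.5 TPM on day 1. It then receded to 98.3, 100.7 and 76.2 TPM on day 2 and to 50.04, 66.5 and 55.8 TPM on day 3. No 2 consecutive days overlapped. From day 0 to 1 the change was 18.5-fold, a log2 change of 4.21 (SE 0.13, adjusted p = 1.18e-11), and 98.9% of all genes tested changed by less. The following steps were −1.22 (SE 0.11, adjusted p = 8.52e-07) and −0.71 (SE 0.11, adjusted p = 0.000556).

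*Dnmt3b*, the other de novo methyltransferase, rose with it and stayed high. It was at 101.2, 83.8 and 116.4 TPM on day 0, 890.3, 892.0 and 820.4 TPM on day 1, 1330.3, 1359.8 and 1160.2 TPM on day 2 and 947.8, 1184.4 and 1055.3 TPM on day 3. Day 0 was far below all later libraries, and days 2 and 3 overlapped. *Dnmt3c*, a related mouse methyltransferase gene, has no row in the tables used here, and 31.9% of its words of 31 bases also occur in *Dnmt3b*, so that reads of *Dnmt3c* could be counted there. The rise from day 0 to 1 was 9.13-fold (log2 change 3.19, SE 0.13, adjusted p = 1.3e-09), and a further 0.46 (SE 0.12, adjusted p = 0.006) followed to day 2. The step to day 3 was −0.32 (SE 0.12, adjusted p = 0.0652), and it was called in 7 of 20 alternatives, among them DESeq2 (adjusted p = 0.0253).

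*Dnmt3l*, a cofactor without catalytic activity of its own that stimulates *Dnmt3a* and *Dnmt3b*, did not stay with them. It was at 327, 326.2 and 387.3 TPM on day 0 and at 662.4, 621.5 and 711.9 TPM on day 1. It fell to 62.1, 66.4 and 38.4 TPM on day 2 and to 6.68, 11.9 and 7.05 TPM on day 3. No day overlapped another. The log2 changes were 1.01 (SE 0.19, adjusted p = 0.00106), −3.69 (SE 0.21, adjusted p = 3.01e-07) and −2.77 (SE 0.27, adjusted p = 9.61e-05) in the 3 steps, a fall of 12.9-fold and then of 6.83-fold. From day 0 to day 3 it was 43.5-fold lower. *Aire*, a gene that overlaps *Dnmt3l* in the annotation, was between 0.33 and 16.8 TPM in the time course and was likewise lower on days 2 and 3 (at most 1.82 TPM) than on days 0 and 1 (at least 6.70 TPM).

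The make-up of the de novo group changed with it. *Dnmt3l* held 75.7% ± 1.5 of the summed TPM of the 3 *Dnmt3* genes on day 0, 38.4% ± 2.45 on day 1, 3.84% ± 0.726 on day 2 and 0.746% ± 0.171 on day 3 (SD, n = 3). *Dnmt3b* held 21.9% ± 1.72, 50.1% ± 2.44, 89.8% ± 1.08 and 94.2% ± 0.334 on the same days. The ratio of *Dnmt3b* to *Dnmt3l* TPM went from 0.289 ± 0.028 to 1.31 ± 0.144, 24.05 ± 5.39 and 130.3 ± 27.

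Among the dioxygenases, *Tet1*, the main *Tet* transcript of mESCs, was at 72.8, 81.8 and 88.3 TPM on day 0 and at 80.1, 70.5 and 71.2 TPM on day 1. It was at 38.7, 43.4 and 26.1 TPM on day 2 and at 19.8, 25.5 and 23.6 TPM on day 3. Days 0 and 1 overlapped and differed by −0.06 on the log2 scale (SE 0.18, adjusted p = 0.792), and no later step overlapped. The later steps were −1.15 (SE 0.18, adjusted p = 0.000446) and −0.70 (SE 0.19, adjusted p = 0.0198). The last call was lost in a fit of the 2 days alone (adjusted p = 0.081) and without either of day 2 replicates 1 and 2 or day 3 replicates 1 and 3 (adjusted p between 0.0554 and 0.0794).

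*Tet2*, which lacks the DNA-binding CXXC domain of its relatives, fell 1 day earlier. It was at 31.4, 32.8 and 45.9 TPM on day 0, 7.52, 6.29 and 7.80 TPM on day 1, 2.40, 1.87 and 1.65 TPM on day 2 and 1.87, 1.79 and 2.02 TPM on day 3. The groups were separate until day 2, and days 2 and 3 overlapped. It was 4.86-fold lower on day 1 than on day 0 (log2 change −2.28, SE 0.15, adjusted p = 8.49e-08) and fell by a further 1.98 (SE 0.19, adjusted p = 2.41e-06) on the log2 scale to day 2. By day 3 it was 20.6-fold lower than on day 0.

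*Tet3*, known for the oxidation of the paternal genome in the zygote and for its expression in neural cells, moved the other way. It was at 2.41, 2.90 and 2.47 TPM on day 0, 5.06, 4.52 and 4.53 TPM on day 1, 7.49, 8.91 and 8.24 TPM on day 2 and 8.67, 8.84 and 10.3 TPM on day 3. It rose by 0.92 (SE 0.10, adjusted p = 1.59e-07) and 0.69 (SE 0.09, adjusted p = 2.22e-06) in the first 2 steps and was 3.35-fold higher on day 3 than on day 0. The sum of the *Tet* genes still fell, from 120.3 ± 15.2 TPM on day 0 to 34.1 ± 3.29 TPM on day 3, and the share of *Tet3* in it went from 2.18% ± 0.335 to 27.3% ± 2.40 while that of *Tet2* went from 30.3% ± 2.92 to 5.57% ± 0.598. *Tet1* held the largest share on every day, between 67.2% and 86.1% on average.

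The balance between transcripts of writers and of *Tet* genes moved with these changes. The ratio of *Dnmt3a* and *Dnmt3b* TPM to *Tet* TPM was 0.930 ± 0.120 on day 0, 12.5 ± 0.843 on day 1, 30.3 ± 3.78 on day 2 and 32.8 ± 1.87 on day 3 (SD, n = 3). In GFP+ cells it was 4.485 in wild-type cells, 8.29 in *Nprl2* KO cells and 1.61 in *Tsc2* KO on average. These values are not set against those of the days, because the length scaling of TPM differed between the experiments. The median number of bases taken off a transcript's length was 179 in every time-course library and 170 to 228 in GFP+ libraries. A ratio of transcripts says nothing of the amount or activity of the proteins.

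*Tdg*, which cuts out the oxidised bases made by *Tet* enzymes, was at 4.71, 3.14 and 4.38 TPM on day 0, 9.30, 9.60 and 9.56 TPM on day 1, 9.31, 8.10 and 10.8 TPM on day 2 and 8.88, 11.3 and 11.9 TPM on day 3. Day 0 was below all other libraries, and the later days overlapped. The rise from day 0 to 1 was 1.30 on the log2 scale (SE 0.15, adjusted p = 4.22e-07). These values are uncertain, because the tables also list *Tdg-ps2*, a processed copy at chr10:42052558-42055453 that RefSeq annotates as a transcribed pseudogene. Of its 1164 words of 31 bases, 971 (83.4%) also occur in *Tdg*, and it was listed at 77.8 to 186 TPM, so that *Tdg* held between 3.72% and 6.26% of their sum. Reads that fit both were divided by the authors' software, and the share that came from *Tdg* cannot be told from these tables. The further copies *Tdg-ps* and *Gm5597* have no row there, and 69.2% and 81.6% of their words of 31 bases also occur in *Tdg*.

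Summed over gene and copy, an alternative chosen after these values were seen, the level was 82.5, 84.3 and 89.0 TPM on day 0 and between 180 and 196 TPM in all later libraries. The sum rose by 1.23 on the log2 scale from day 0 to 1 (SE 0.06, adjusted p = 6.93e-13), close to the value for *Tdg* alone. From day 1 to 2 it changed by −0.17 (adjusted p = 0.0113), where *Tdg* alone gave −0.13 (adjusted p = 0.431).

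**Figure D2:**
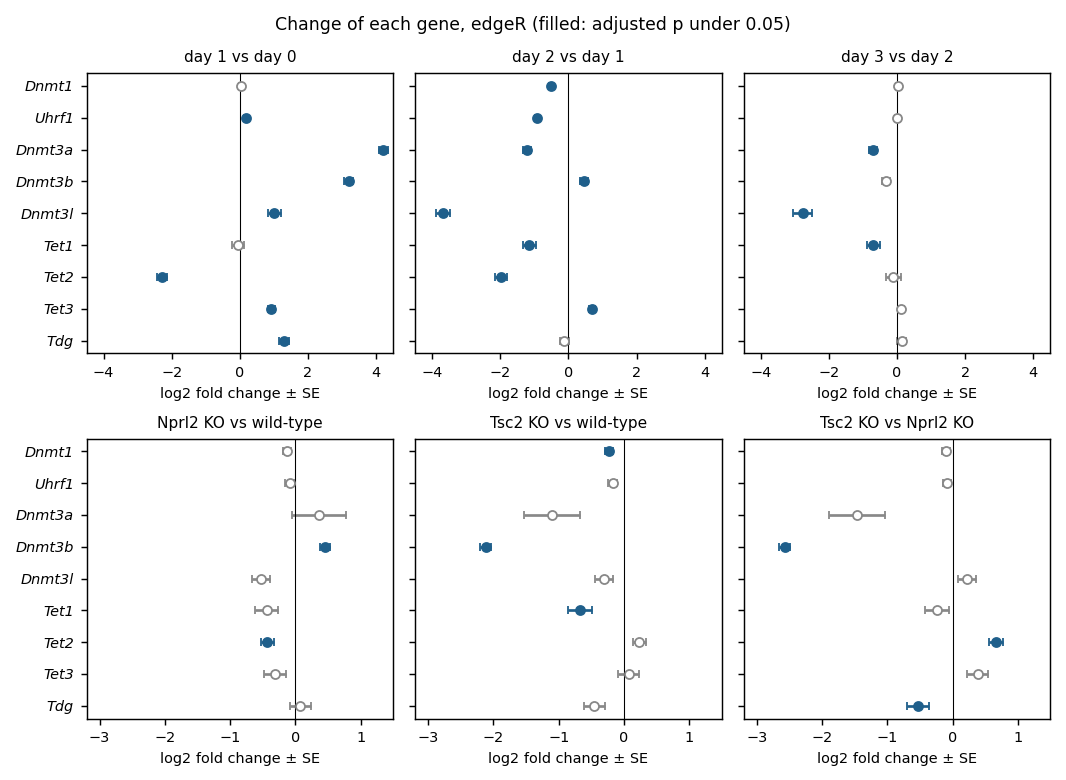
Log2 fold change of each gene with its SE from edgeR in 3 steps of the time course (top) and 3 comparisons of GFP+ genotypes (bottom, on a narrower axis), with filled points for an adjusted p under 0.05. The largest changes are *Dnmt3a* at 4.21 on day 1, *Dnmt3l* at −3.69 on day 2 and, in GFP+ cells, *Dnmt3b* at −2.57 between the KOs and at −2.12 in *Tsc2* KO against wild-type.

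The order of the levels in TPM changed with the day. On day 0 it was *Uhrf1*, *Dnmt3l*, *Dnmt1*, *Dnmt3b*, *Tet1*, *Tet2*, *Dnmt3a*, *Tdg* and *Tet3*, and the neighbours *Uhrf1* and *Dnmt3l*, and *Dnmt3b* and *Tet1*, overlapped. On day 1 *Dnmt3b* led, followed by *Dnmt3l*, *Uhrf1*, *Dnmt3a*, *Dnmt1*, *Tet1*, *Tdg*, *Tet2* and *Tet3*, and no neighbours overlapped. On day 3 *Dnmt3b*, *Uhrf1*, *Dnmt1*, *Dnmt3a* and *Tet1* stood apart in that order, *Tdg*, *Tet3* and *Dnmt3l* overlapped, and *Tet2* was lowest. *Dnmt3l* thus went from overlapping the highest gene on day 0 to overlapping *Tdg* and *Tet3*.

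At the level of single transcripts, the rise of *Dnmt3a* on day 1 was carried by the short transcript whose start site is shown above. NM_153743.4 was at 4.49, 7.73 and 4.73 TPM on day 0 and at 187.6, 187.8 and 187.3 TPM on day 1, then at 86.4, 82.2 and 55.7 TPM on day 2 and at 38.05, 47.0 and 39.3 TPM on day 3. Its share of *Dnmt3a* TPM was 41.8%, 67.6% and 44.7% on day 0, at least 92.9% on day 1, between 73.1% and 87.9% on day 2 and between 70.5% and 76.0% on day 3. Day 0 lay below all other libraries. The shares differed between days by an exact permutation test over all arrangements of the 12 libraries (p = 0.00013, adjusted p = 0.000346 over the 8 *Dnmt3a* and *Dnmt3b* transcripts tested).

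The long transcript NM_007872.4 was at 5.36, 2.38 and 2.91 TPM on day 0 and at 2.67, 7.81 and 2.99 TPM on day 1, so that its level overlapped between these days while its share went from 32.7% to 2.25% on average. NM_001271753.1, which encodes the same coding length of 2724 bases from a start nearby, went from 0.905, 1.33 and 2.95 TPM to 11.7, 3.30 and 10.2 TPM. The edgeR test on transcripts gave log2 changes from day 0 to 1 of 5.09 (SE 0.25, adjusted p = 5.24e-07) for the short transcript, 0.39 (SE 0.99, adjusted p = 0.813) for NM_007872.4 and 2.32 (SE 0.79, adjusted p = 0.0426) for NM_001271753.1. The long pair share nearly all their sequence, and their division varied widely between libraries of a day.

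The 9 *Dnmt3b* transcripts differ mainly in which internal exons they hold, and the pair of alternative exons near the 3′ end of the coding sequence is printed because its use shifted with the day. Coding exons 20 and 21, at chr2:153683608-153683677 and chr2:153684359-153684477, hold 70 and 119 bases, 63 codons together, and belong to the catalytic domain. The exons are in capitals between 15 bases of their neighbours (GENCODE M21, GRCm38).
Dnmt3b with the 2 exons: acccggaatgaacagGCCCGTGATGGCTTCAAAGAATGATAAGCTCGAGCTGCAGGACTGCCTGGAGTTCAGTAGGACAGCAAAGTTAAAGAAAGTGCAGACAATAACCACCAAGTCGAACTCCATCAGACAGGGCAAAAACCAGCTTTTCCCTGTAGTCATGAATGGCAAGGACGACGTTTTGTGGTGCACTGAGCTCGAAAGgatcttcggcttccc
Dnmt3b without the 2 exons: acccggaatgaacaggatcttcggcttccc

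Of the 9 transcripts 4, NM_001003963.4, NM_001271746.1, NM_010068.5 and NM_001271747.1, lack both exons. This grouping was made after the values were seen and is given without a test. The transcripts without the exons held 38.9%, 40% and 45.7% of *Dnmt3b* TPM on day 0, 21.5%, 22.7% and 26.0% on day 1, 10.8%, 13.1% and 14.7% on day 2 and 10.9%, 12.1% and 14.9% on day 3. The share fell over the first 2 steps without overlap and then held. In TPM, the transcripts with the exons went from 58.4 ± 7.10 on day 0 to 665 ± 50.6 on day 1 and 1119 ± 112 on day 2, and those without from 42.0 ± 10.1 to 202.5 ± 11 and 164.1 ± 18 (SD, n = 3).

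Of the single *Dnmt3b* transcripts, NM_001122997.2 held 56.5% on day 0 and 55.4% on day 3, and its share was not shown to differ between days (exact permutation test, adjusted p = 0.939). NM_001271744.1, which has the exons, rose from 0.761% to 10.1%, 19.2% and 23.0% (adjusted p = 0.00026, at the smallest p the test can give), and NM_001003961.4 from 1.14% to 9.27%, 11.6% and 8.07% (adjusted p = 0.00143). NM_001003963.4, which lacks them, went from 26.0% to 10.7%, 4.72% and 3.17% (adjusted p = 0.00026), and NM_001271746.1 from 13.4% to 12.04%, 7.93% and 9.17% (adjusted p = 0.00719). In all, 6 of the 8 shares tested differed between days, also as shares of estimated counts. On day 0 NM_001271744.1 rested on 1.55, 64.2 and 0.396 estimated counts in the 3 libraries, so no fold change is given for it.

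With edgeR on all 19724 transcripts, 10 of the 12 transcripts of both genes were called from day 0 to 1, all higher, where 37.5% of transcripts were called. It was 3 of 12 from day 1 to 2 (37.3% of all), the short *Dnmt3a* transcript lower and NM_001122997.2 and NM_001271744.1 higher, 1 of 12 from day 2 to 3 (11.1%), the short *Dnmt3a* transcript at −0.87 (SE 0.21, adjusted p = 0.029), and 9 of 12 from day 0 to 3 (46.6%). Tests of usage within the gene called NM_001003961.4, NM_001003963.4 and NM_001271744.1 from day 0 to 1 and from day 0 to 3, and the latter 2 from day 1 to 2, where 0.819%, 2.04% and 0.887% of transcripts were called. From day 2 to 3 none of the transcripts of both genes was called for usage, and 0.284% of all were. No *Dnmt3a* transcript was called for usage in any of these steps. From day 0 to 1 the adjusted p of this test was 0.39 for the short transcript, 0.0638 for NM_007872.4 and 0.33 for NM_001271753.1.

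**Figure D3:**
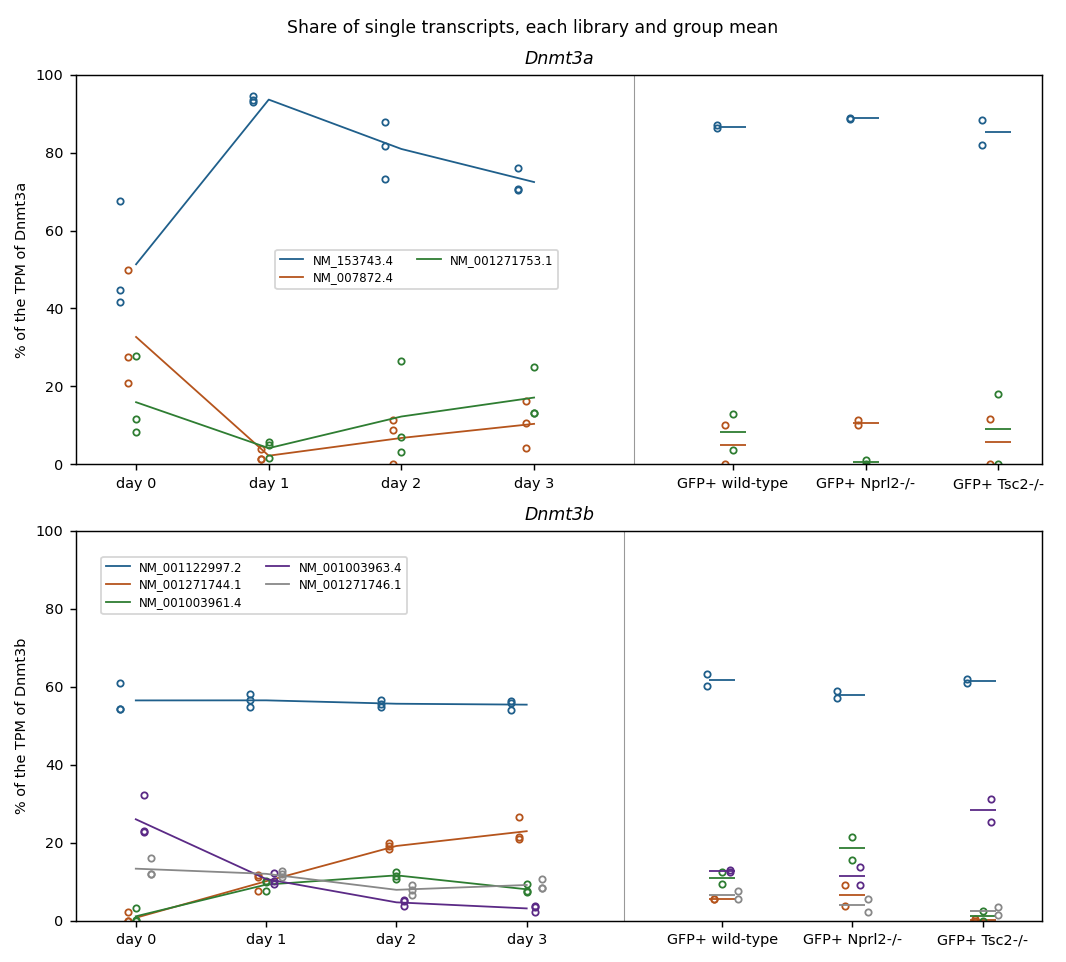
Share of the gene's TPM held by each *Dnmt3a* (top) and *Dnmt3b* (bottom) transcript with a mean share of at least 5%, in every library, with group means as lines. The short *Dnmt3a* transcript NM_153743.4 goes from 51.3% to 93.6% between days 0 and 1, and in *Dnmt3b* NM_001003963.4 falls from 26.0% to 3.17% as NM_001271744.1 rises to 23.0%.

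**Figure D4:**
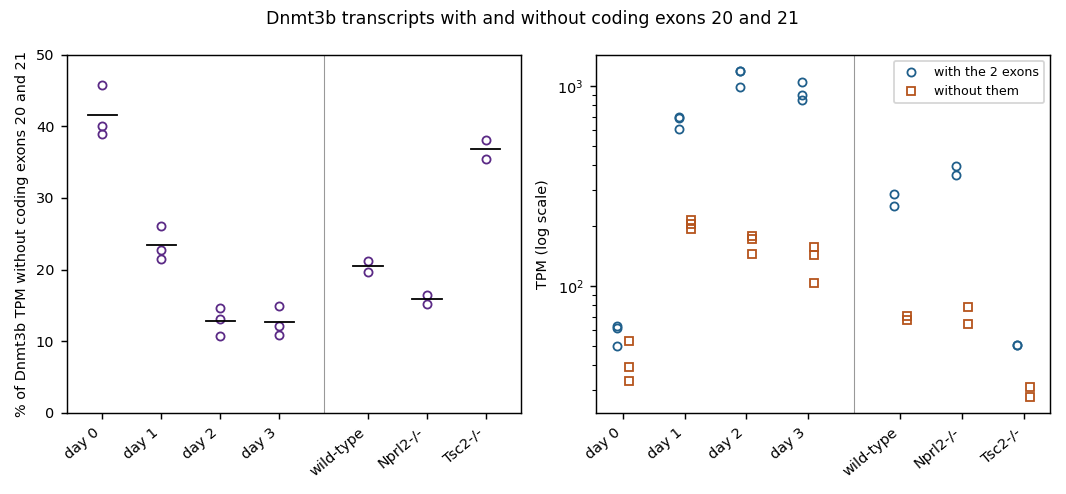
Left, share of *Dnmt3b* TPM in transcripts without coding exons 20 and 21 in every library, with group means as bars, and right, TPM of the transcripts with (circles) and without (squares) the exons on a log axis. In the time course the mean share falls from 41.5% on day 0 to 12.6% on day 3, and in GFP+ cells it is highest in *Tsc2* KO, at 36.8%, and lowest in *Nprl2* KO, at 15.9%.

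In GFP+ cells, where all libraries come from cells that kept the *Rex1* reporter, *Dnmt3b* set the genotypes apart most clearly. *Dnmt3b* was at 359.7 and 316.9 TPM in wild-type cells, 474.5 and 420.2 TPM in *Nprl2* KO cells and 78.6 and 81.5 TPM in *Tsc2* KO. No genotype overlapped another. It was 1.37-fold higher in *Nprl2* KO (log2 change 0.45, SE 0.08, adjusted p = 0.00441) and 4.35-fold lower in *Tsc2* KO (−2.12, SE 0.08, adjusted p = 1.5e-08) than in wild-type cells, and 98.7% of genes changed by less in *Tsc2* KO. Both comparisons use the same wild-type libraries.

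In *Nprl2* KO 2 of the 9 genes were called, *Dnmt3b* higher and *Tet2* lower, where 6.43% of 13725 genes were called (2.78% higher and 3.66% lower). In *Tsc2* KO 3 were called, *Dnmt3b*, *Dnmt1* and *Tet1*, all lower, where 29.1% of genes were called (14.2% lower). Between the KOs 3 were called, *Dnmt3b* and *Tdg* lower and *Tet2* higher in *Tsc2* KO, against 34.2% of genes (17.5% higher and 16.6% lower). Groups did not overlap for 8, 8 and 6 of the 9 genes, where 51.0%, 65.9% and 68.1% of all genes did not overlap. The median log2 change of the 9 genes was −0.13, −0.30 and −0.10 in these comparisons, and that of all genes between −0.01 and 0.00. Chromosome 1, which holds none of the 9 genes, was shifted as a whole in *Tsc2* KO. The median of its 747 genes tested was 0.37 against wild-type and 0.36 against *Nprl2* KO. In *Nprl2* KO against wild-type it was −0.008. The calls over all genes in *Tsc2* KO include these genes, and the cause of the shift was not tested.

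The share of *Dnmt3b* TPM without coding exons 20 and 21 was 19.7% and 21.2% in wild-type cells, 16.5% and 15.3% in *Nprl2* KO cells and 35.5% and 38.1% in *Tsc2* KO, again with no overlap. These shares are not set against those of the days, because the division between transcripts differed between the experiments: the *Dnmt1* transcript NM_001199432.1 held 34.7% to 48.1% of *Dnmt1* TPM on average in the time course and at most 0.0328% in GFP+ cells, and the library kit of the time course is not given in the sources used here. The TPM with the exons was 269.3 ± 27.6, 376.2 ± 28.4 and 50.6 ± 0.199 in the 3 genotypes, and that without them 69.0 ± 2.64, 71.2 ± 10 and 29.5 ± 2.22 (SD, n = 2). Of the single transcripts, NM_001271744.1 was at 20.5 and 17.3 TPM in wild-type and at 0.269 TPM and near 0 in *Tsc2* KO, and NM_001003961.4 at 44.9 and 29.8 TPM against 1.91 TPM and near 0. Both were called in the test of usage within the gene in *Tsc2* KO against wild-type (adjusted p = 0.016 and 0.00223), where 0.222% of transcripts were called, and against *Nprl2* KO (adjusted p = 0.0103 and 5.35e-05), where 0.209% were called.

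On the level of single transcripts edgeR called 4 of the 12 in *Tsc2* KO against wild-type, all lower and all of *Dnmt3b*, where 8.45% of 18632 transcripts were called. With any wild-type or *Tsc2* KO library left out, 0 or 1 of the 12 were called, and the calls over all transcripts went from 1575 to between 0 and 8. In *Nprl2* KO 0 of 12 were called, and 1 was under 0.05 before adjustment. Over all 18632 transcripts 0 were called in that comparison and 2540 were under 0.05 before adjustment.

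*Dnmt3a* was more variable, at 71.1 and 40.9 TPM in wild-type cells, 81.7 and 57.8 TPM in *Nprl2* KO cells and 31.6 and 21.65 TPM in *Tsc2* KO. In every genotype library 1 was the higher, and *Nprl2* KO and wild-type overlapped. Library 1 was also the higher in every genotype for *Dnmt1*, *Uhrf1*, *Dnmt3l*, *Tet1* and *Tet2*, but not for *Dnmt3b*, *Tet3* and *Tdg*. The log2 changes were 0.36 (SE 0.42, adjusted p = 0.703) in *Nprl2* KO, −1.10 (SE 0.43, adjusted p = 0.166) in *Tsc2* KO and −1.47 (SE 0.43, adjusted p = 0.088) between the KOs. The call in *Tsc2* KO was gained with limma (adjusted p = 0.0351). That between the KOs was gained with limma (adjusted p = 0.00994) and with DESeq2 (adjusted p = 0.00643). All 3 comparisons were called without the low-count filter, and also with a replicate block. The block pairs libraries of the same number, a pairing that the labels do not give. The short transcript held 86.6%, 88.8% and 85.2% of *Dnmt3a* TPM in the 3 genotypes, at 48.6, 61.9 and 22.8 TPM on average.

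*Dnmt3l* was at 494.3 and 412.1 TPM in wild-type cells, 343.1 and 275.9 TPM in *Nprl2* KO cells and 407.6 and 348.0 TPM in *Tsc2* KO. Both KOs lay below wild-type in every library, and the KOs overlapped in CPM but not in TPM. The log2 changes were −0.53 (SE 0.14, adjusted p = 0.0762) and −0.30 (SE 0.14, adjusted p = 0.147), and the first was called in 7 of 14 alternatives, among them DESeq2 (adjusted p = 0.000263). DESeq2 also called *Dnmt3l* lower in *Tsc2* KO (adjusted p = 0.0401). *Dnmt3l* held 53.5% of *Dnmt3* TPM in wild-type cells, 37.4% in *Nprl2* KO cells and 77.9% in *Tsc2* KO, and the ratio of *Dnmt3b* to *Dnmt3l* was 0.748, 1.45 and 0.2135 in that order.

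Of the erasers, *Tet1* was at 76.3 and 62.0 TPM in wild-type cells, 55.3 and 42.8 TPM in *Nprl2* KO cells and 47.9 and 40.2 TPM in *Tsc2* KO. It was lower in both KOs without overlap, by −0.44 (SE 0.18, adjusted p = 0.251) and −0.68 (SE 0.18, adjusted p = 0.0485) on the log2 scale. The second call was lost with upper-quartile normalization (adjusted p = 0.0509) and without wild-type library 1, wild-type library 2 or *Tsc2* KO library 2 (adjusted p = 0.164, 0.0561 and 0.144).

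*Tet2* went in opposite directions in the KOs, at 17.6 and 15.9 TPM in wild-type cells, 13.3 and 10.8 TPM in *Nprl2* KO cells and 20.4 and 19.9 TPM in *Tsc2* KO. No genotype overlapped another. It fell in *Nprl2* KO (−0.43, SE 0.10, adjusted p = 0.0287), was not called in *Tsc2* KO (0.23, SE 0.10, adjusted p = 0.102) and was higher in *Tsc2* KO than in *Nprl2* KO (0.66, SE 0.10, adjusted p = 0.00035). The first call was lost with limma (adjusted p = 0.0944), with the 2 genotypes alone (adjusted p = 0.0533) and without wild-type library 1, wild-type library 2 or *Nprl2* KO library 2 (adjusted p = 0.158, 0.051 and 0.19). *Tet3* was at 2.33 and 1.84 TPM, 1.602 and 1.66 TPM, and 2.14 and 2.37 TPM, and no comparison of it was called.

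The maintenance pair varied least. *Dnmt1* was at 164.7 and 158.4 TPM in wild-type cells, 145.7 and 140.1 TPM in *Nprl2* KO cells and 143.5 and 139.0 TPM in *Tsc2* KO, and *Uhrf1* at 323.5 and 314.5, 303.1 and 277.7, and 293.6 and 283.6 TPM. Both genes were lower in every KO library than in both wild-type libraries. *Dnmt1* was called in *Tsc2* KO (−0.23, SE 0.06, adjusted p = 0.0151), and this was lost without wild-type library 1, wild-type library 2 or *Tsc2* KO library 2 (adjusted p = 0.0908, 0.0583 and 0.137). *Uhrf1* was not called (−0.17, SE 0.07, adjusted p = 0.0639). It was called by edgeR with the 2 genotypes alone (adjusted p = 0.0389) and without the low-count filter (adjusted p = 0.0273). Their ratio stayed between 1.975 and 2.04 on average.

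*Tdg* was at 7.55 and 7.03 TPM, 7.30 and 7.68 TPM, and 6.03 and 4.94 TPM in wild-type cells, *Nprl2* KO cells and *Tsc2* KO cells. With *Tdg-ps2* added the levels were 120.6 and 122.3, 128.1 and 130.7, and 97.0 and 103.6 TPM. Both ways *Tsc2* KO was lowest. The log2 change in *Tsc2* KO was −0.45 (SE 0.17, adjusted p = 0.06) for *Tdg* and −0.31 (SE 0.06, adjusted p = 0.0033) for the sum, and against *Nprl2* KO it was −0.53 (SE 0.16, adjusted p = 0.0245) and −0.44 (SE 0.06, adjusted p = 0.000225). The *Tdg* call between the KOs was lost with DESeq2 (adjusted p = 0.138), with limma (adjusted p = 0.076) and without *Nprl2* KO library 1, *Nprl2* KO library 2 or *Tsc2* KO library 2 (adjusted p = 0.0664, 0.114 and 0.211).

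**Figure D5:**
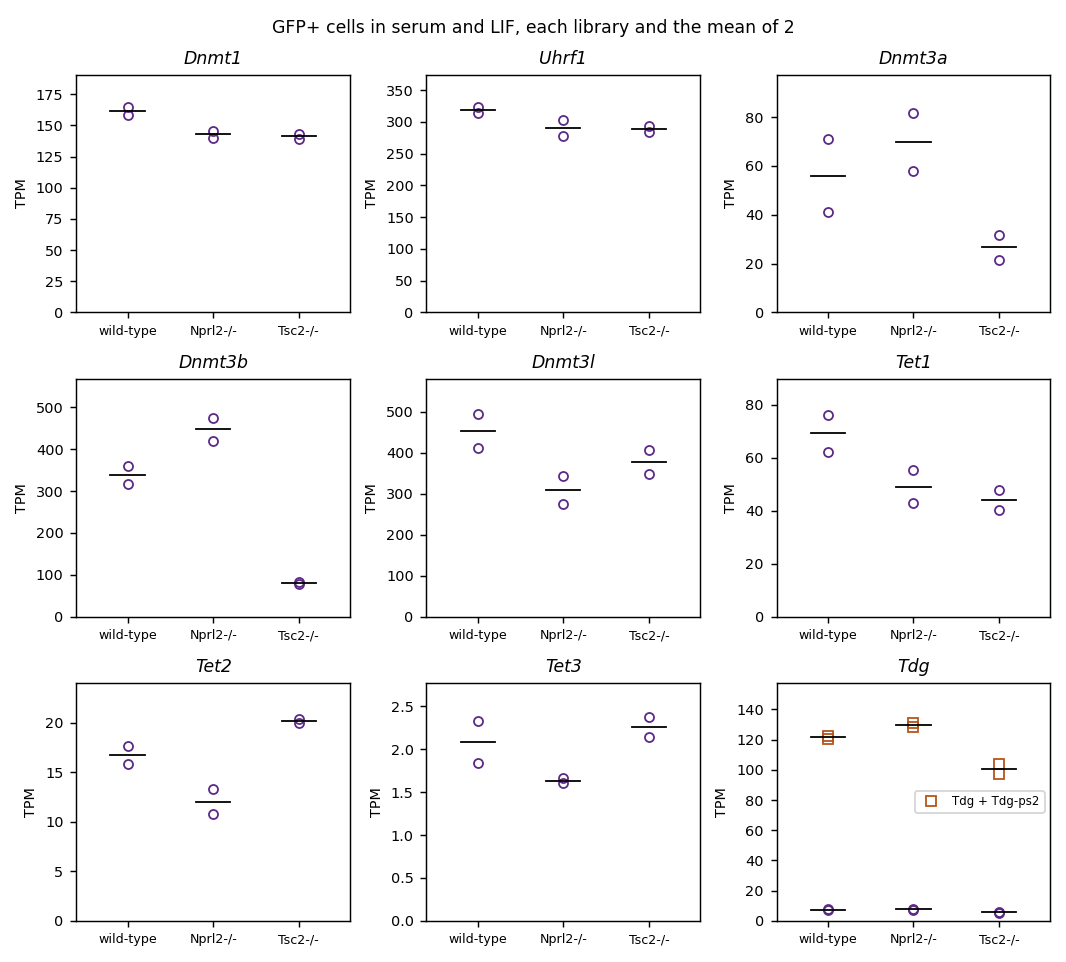
TPM of each of the 9 genes in the 6 GFP+ libraries, with the mean of both libraries of a genotype as a bar, on axes that start at 0. *Dnmt3b* ranges from 78.6 TPM in *Tsc2* KO to 474.5 TPM in *Nprl2* KO, *Tet2* is lowest in *Nprl2* KO, and squares show *Tdg* summed with *Tdg-ps2*.

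Only some of these genotype differences moved with the markers of cell state. The naive markers went in opposite directions in the KOs, as did *Dnmt3b* and *Tet2*. The log2 changes in *Nprl2* KO and *Tsc2* KO also had opposite signs for *Dnmt3a* (0.36 and −1.10), *Tdg* (0.08 and −0.45) and *Tet3* (−0.31 and 0.07). None of these was called against wild-type in the main edgeR fit. *Tet1*, *Dnmt3l*, *Dnmt1* and *Uhrf1* were lower than wild-type in both KOs, and of these only *Tet1* and *Dnmt1* were called in that fit, both in *Tsc2* KO. All 6 naive markers were higher in *Tsc2* KO (14.9% of all genes), with a median log2 change of 1.09, and 5 of 6 were lower in *Nprl2* KO (3.66% of all genes), with a median of −1.01. Of the formative epiblast markers *Fgf5*, *Otx2*, *Pou3f1* and *Lef1*, which mark the state after exit from naive pluripotency, 3 of 4 were lower in *Tsc2* KO (median −1.78) and 0 of 4 were called in *Nprl2* KO with edgeR (median 0.69, 2 of 4 under 0.05 before adjustment). *Zfp42* itself was at 591, 430 and 868 TPM on average in wild-type cells, *Nprl2* KO cells and *Tsc2* KO cells. The part of cell state in the differences of the 9 genes was not tested. The summed TPM of 8 fibroblast genes, markers of the feeders, was 154.0 and 108.7 in wild-type cells, 119.2 and 113.5 in *Nprl2* KO cells and 137.8 and 37.7 in *Tsc2* KO, with *Lum* at or near 0 in all, and 0 of the 5 fibroblast genes tested were called in either KO (0 under 0.05 before adjustment, edgeR). In *Dnmt3b* the *Tsc2* KO library with the low sum and the one with the high sum differed little, at 81.5 and 78.6 TPM. In the same order *Dnmt3a* was at 21.65 and 31.6 TPM, *Dnmt3l* at 348.0 and 407.6 TPM and *Tet1* at 40.2 and 47.9 TPM. Of the 9 genes, only *Dnmt3b* and *Tet3* were not lower in the library with the low sum. The part of feeder RNA in the values of the 9 genes was not tested.

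Genes that work with the maintenance pair were mostly lower on day 2 than on day 1. The list held 12 genes, among them *Hells*, a chromatin remodeller, *Pcna* and *Lig1* of the replication fork, *Trim28* and *Setdb1*, corepressors at methylated repeats, and *Zfp57*, which binds methylated imprinted regions. From day 1 to 2, 10 of the 12 were lower and 0 higher (29.6% and 32.5% of all genes), with a median log2 change of −0.49 where that of all genes was 0.02. *Zfp57* fell the most, from 663.8 ± 25.4 CPM on day 0 to 275.2 ± 30.9 on day 1 and 65.2 ± 0.6 on day 2, with −2.08 (SE 0.09, adjusted p = 2.37e-12) in the second step. *Hells* rose from 362 ± 20 to 838 ± 35 CPM on day 1 (1.21, SE 0.12, adjusted p = 1.86e-06) and fell back to 388 ± 82 CPM on day 2. From day 0 to 1, 6 of the 12 were higher and 3 lower, where 30.1% and 30.8% of all genes were.

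A list of 14 genes of S phase, the phase in which maintenance methylation takes place, had 11 higher and 0 lower from day 0 to 1 (median 0.34) and 14 of 14 lower from day 1 to 2 (median −0.46), beside the same shares of all genes. *Ccne1*, the cyclin of S-phase entry, rose by 1.09 (SE 0.06, adjusted p = 2.47e-11) and then fell by 0.96 (SE 0.06, adjusted p = 2.46e-10) on the log2 scale. The share of cells in S phase was not measured, and its part in the course of *Dnmt1* and *Uhrf1* was not tested.

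In the KOs the largest change among the maintenance partners called was in *Dppa3*, which encodes a protein known to bind Uhrf1 and keep it from chromatin. It was at 18.5 ± 2.9 CPM in wild-type cells, 39.3 ± 10.4 CPM in *Nprl2* KO cells and 4.10 ± 0.25 CPM in *Tsc2* KO (SD, n = 2), changes of 1.10 (SE 0.19, adjusted p = 0.00709) and −2.16 (SE 0.23, adjusted p = 9.4e-05). *Zfp57* was higher in *Tsc2* KO (0.78, SE 0.14, adjusted p = 0.00803). Of the 12 partners 1 was called in *Nprl2* KO cells, where 6.43% of all genes were, and 5 in *Tsc2* KO, 1 higher and 4 lower, where 29.1% were.

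Among partners and regulators of the *Tet* and *Dnmt3* genes, *Prdm14*, a naive-state repressor of *Dnmt3b*, fell from 47.3 ± 1.2 CPM on day 0 to 0.799 ± 0.048 CPM on day 1 (−5.87, SE 0.17, adjusted p = 1.46e-15). In GFP+ cells it was at 12.7 ± 2.7 CPM in wild-type cells, 11.5 ± 2.8 CPM in *Nprl2* KO cells and 32.1 ± 2.3 CPM in *Tsc2* KO, and it was called in *Tsc2* KO (1.33, SE 0.18, adjusted p = 0.000248). *Ogt*, the glycosyltransferase that binds *Tet* proteins, was lower on day 1 (−0.69, SE 0.06, adjusted p = 2.28e-08). *Cxxc5*, a CXXC protein, was lower on day 1 (−0.95, SE 0.08, adjusted p = 5.81e-09) and higher again on days 2 and 3. Of the 6 genes of this list 2 were higher and 3 lower on day 1 (30.1% and 30.8% of all genes), with a median of −0.30.

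A list of 13 germline genes whose promoters are known to be silenced by DNA methylation was also followed, with 11 passing the filter. From day 0 to 1, 8 of the 11 were higher and 0 lower (30.1% and 30.8% of all genes), with a median log2 change of 0.78. From day 2 to 3, 10 of the 11 were lower and 0 higher (15.6% and 15.9% of all genes), with a median of −2.01. *Dazl*, an RNA-binding protein of germ cells, went from 31.9 ± 5.6 CPM on day 0 to 48.3 ± 0.7 on day 1, 9.18 ± 1.62 on day 2 and 2.12 ± 0.47 on day 3. *Mael*, of the piRNA pathway, went from 7.91 ± 1.14 to 34.2 ± 2.8, 38.0 ± 2.2 and 8.67 ± 1.87 CPM on these days. From day 0 to 3, 2 of the 11 were higher and 6 lower (35.0% and 35.9% of all genes). *Sycp3*, of the synaptonemal complex, was among the higher, by 1.38 on the log2 scale (SE 0.13, adjusted p = 1.67e-08).

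In *Tsc2* KO 8 of the 11 germline genes were higher and 1 lower (14.9% and 14.2% of all genes), with a median of 1.05, and in *Nprl2* KO 1 was called, *Tex19.1*, higher by 0.76 (SE 0.07, adjusted p = 0.000107). *Mael* was at 34.3 ± 0.5 CPM in *Tsc2* KO and 13.3 ± 1.4 CPM in wild-type cells, and *Dazl* at 37.2 ± 1.8 and 17.7 ± 6.0 CPM (SD, n = 2). Their promoters were not assayed for methylation.

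Over the 12 time-course libraries, the 2 genes with the log2 CPM most like each of the 9 among 11939 genes were described by Pearson's r. They were *Lef1* (0.994) and *Rbpms2* (0.994) for *Dnmt3a*, *Tmem54* (0.997) and *Pm20d2* (0.996) for *Dnmt3b*, and *Kat2b* (0.997) and *Rpl10l* (0.997) for *Dnmt3l*. They were *Abhd2* (0.9899) and *Cops7b* (0.989) for *Dnmt1*, *Poldip3* (0.992) and *Gpx4* (0.9899) for *Uhrf1*, *Zfp984* (0.992) and *Zfp961* (0.992) for *Tet1*, *Eif4e2* (0.995) and *D230025D16Rik* (0.994) for *Tet2*, *Rnf217* (0.992) and *Pclaf* (0.992) for *Tet3*, and, with 1 gene given, *Ttll12* (0.975) for *Tdg*. *Lef1*, the closest to *Dnmt3a*, went from 11.5 CPM on day 0 to 200.2, 81.3 and 50.2 CPM. Libraries of a day share their day, so these coefficients rest on 4 levels. Among the 9 genes themselves *Tet2* and *Tet3* were the most opposed pair, at −0.985, and *Dnmt3l* and *Tet1* reached 0.968.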

How the data were processed

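RNA was sequenced from 12 wild-type time-course libraries and 6 libraries of GFP+ cells. The authors deposited, for each library, estimated counts and TPM per RefSeq transcript from kallisto 0.42.1, and a gene table of TPM. Their DESeq2 tables, which hold base means, log2 fold changes, SEs, test statistics, p-values and adjusted p-values, were not used. Transcripts were assigned to 24296 genes by RefSeq and GENCODE (mm10), and estimated counts were summed per gene and rounded. No molecular identifiers are named, so counting limits cover counting error only.

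Genes were tested with edgeR 4.0.16 (TMM, its default low-count filter, robust quasi-likelihood, Benjamini-Hochberg adjustment, threshold 0.05), in 1 fit per experiment over 14382 genes (12 libraries) and 13725 genes (6 libraries). SE is the size of the log2 change over the square root of F. Transcripts were tested alike, and their usage with edgeR's exon-usage test. Shares of the *Dnmt3a* and *Dnmt3b* transcripts with a mean share of at least 5% were compared between days by an exact permutation test. The tests were checked on simulated data. Alternatives were DESeq2 1.42.0, limma 3.58.1 on log2(TPM + 1), upper-quartile scaling, no filter, at least 10 counts in every library, the 2 groups alone, a replicate block, leaving out each library, and, added after the data were seen, *Tdg* with *Tdg-ps2*.

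Libraries were grouped by their labels. The genes, lists and motifs were chosen with earlier results of these data known. All 9 genes are named. For each gene the 2 others with the highest correlation were named, and of each list up to the 5 called genes that changed most, above a mean level of 1 on the log2 CPM scale. For *Tdg* 1 of these 2 is not reported here. *Prdm14* in *Nprl2* KO cells is given beside its call in *Tsc2* KO cells. Figures used Python 3.11.15, and sequences came from RefSeq and GENCODE M21.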

Additional observations from a re-analysis of the deposited data

Results flagged for a closer look

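In the direct comparison of *Tsc2* KO with *Nprl2* KO cells edgeR called 3 of the 9 genes, where 34.2% of 13725 genes were called. *Dnmt3b* differed by −2.5739 on the log2 scale (SE 0.08, adjusted p = 1.34e-09), being higher in *Nprl2* KO and lower in *Tsc2* KO cells than in wild-type cells, in both libraries of each. *Tet2* differed by 0.66465 (adjusted p = 0.00035). *Tdg* differed by −0.52842 (adjusted p = 0.0245), and by −0.44 with its copy *Tdg-ps2* (adjusted p = 0.000225). The call for *Tdg* alone was lost with DESeq2 (adjusted p = 0.138) and with limma (adjusted p = 0.076). The causes were not tested.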

How the results depend on the processing

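Of the 9 genes, 2 were called in *Nprl2* KO, 3 in *Tsc2* KO and 3 between the KOs. Without the filter these counts became 5, 7 and 6, with a replicate block 5, 8 and 7, and with limma 1, 4 and 3. DESeq2 gave 3, 4 and 3. Calls over all genes moved as well, from 883, 3996 and 4692 of 13725 to 1667, 4638 and 5304 of 19367 without the filter, 2072, 5255 and 5846 with the block, 596, 3609 and 4262 with limma and 685 of 10731, 2746 of 13359 and 3318 of 13735 with DESeq2. Leaving out 1 library gave 1 to 3, 1 to 5 and 2 to 3. In the comparisons with wild-type the lowest counts came without either wild-type library or library 2 of the KO compared, and the 5 without *Nprl2* KO library 2. In the time course, leaving out 1 library gave 6 to 7 genes from day 0 to 1, 8 from day 1 to 2, 2 to 4 from day 2 to 3 and 9 from day 0 to 3. Of the transcripts of *Dnmt3a* and *Dnmt3b*, a minimum of 10 counts in every library left 2 called in *Tsc2* KO, 6 from day 0 to 1, 2 from day 2 to 3 and 5 from day 0 to 3. Leaving out 1 library of the groups compared gave 0 to 1 in *Tsc2* KO, where all transcripts called went from 1575 to 0 to 8, and 1 to 3 between the KOs, where they went from 2162 to 30 to 374. It gave 9 to 10 from day 0 to 1, 1 to 3 from day 1 to 2, 0 to 1 from day 2 to 3 and 7 to 8 from day 0 to 3. Calls over all features are not set beside the counts with a minimum of 10 counts. The same holds for the gene counts and the time-course transcript counts with 1 library left out. These counts therefore do not tell a shift of these genes from a general one. The causes were not tested.

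Directions that turned belonged to small, uncalled changes. *Dnmt1* from day 0 to 1 was −0.0040 with upper-quartile scaling, −0.053 with limma and −0.019 to 0.059 when 1 library was left out. *Tet1* in that step was −0.14 to 0.012. *Uhrf1* from day 2 to 3 was −0.013 with upper-quartile scaling, −0.0033 with the 2 days alone and −0.024 to 0.041 when 1 library was left out. *Tet2* in that step was −0.22 to 0.068, and *Tdg* with *Tdg-ps2* was −0.011. *Tet3* in *Tsc2* KO was −0.064 to 0.24.

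The replicate block used numbers that only name the GFP+ libraries. Deviations of libraries with the same number correlated at 0.161 to 0.307 in the 3 pairs of genotypes. With 2 libraries per genotype the values for different numbers are their mirror image, so they add nothing. In the time course the same number gave −0.181 to 0.226, and 6 of 12 libraries were closest to their own number. With the block *Dnmt3a* was called in *Nprl2* KO (0.39, adjusted p = 0.000296) and in *Tsc2* KO (−1.08, adjusted p = 6.31e-10).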

Other observations

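Readers of methylation, suppliers of methyl groups and repair genes were called in both directions from day 0 to 1. Of 8 methyl-CpG readers, 2 were higher and 4 lower from day 0 to 1 (edgeR), with a median log2 change of −0.26, where 30.1% of all genes were higher and 30.8% lower, and 1 was higher and 1 lower in *Tsc2* KO, where 14.9% and 14.2% of all genes were. Of 7 genes that make or recycle the methyl donor, 2 were higher and 1 lower from day 0 to 1. *Mat2a*, which makes S-adenosylmethionine, rose from 429 ± 96.2 to 690 ± 24.5 CPM (SD, n = 3) and returned to 416 ± 51.0 CPM on day 2. *Ahcy*, which clears its product, was at 14.4 ± 1.88 CPM in wild-type and 7.90 ± 0.829 CPM in *Tsc2* KO (SD, n = 2), a log2 change of −0.87 (edgeR, SE 0.19, adjusted p = 0.00481). Of 14 base excision and deamination genes tested, 4 were higher and 6 lower from day 0 to 1, with *Gadd45a*, linked to active demethylation, going from 20.4 ± 5.54 to 74.5 ± 4.97 CPM. In *Nprl2* KO none of these 3 lists held a called gene, with 1, 4 and 3 genes under 0.05 before adjustment.

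Of the other marker lists, 1 of 4 general pluripotency genes was higher and 2 lower from day 0 to 1, where 30.1% of all genes were higher and 30.8% lower. From day 0 to 3, 1 of 6 primitive endoderm genes was higher and 5 lower, 2 of 4 neural genes were higher, and 2 of 4 mesendoderm genes were higher and 1 lower, where 35.0% of all genes were higher and 35.9% lower. The primitive endoderm genes together were at most 11.5 TPM in any library.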
